A study of Mus musculus with 12 samples.

Results

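The 10 genes described here encode the muscle acetylcholine receptor and the proteins that gather it at the neuromuscular junction. They were taken by symbol from the annotation of genome build GRCm38, and all 10 were found among the 55487 genes of the count table. They are the receptor subunit genes Chrna1, Chrnb1, Chrnd, Chrng and Chrne, the clustering genes Lrp4, Musk, Dok7 and Rapsn, and Ache, the gene of acetylcholinesterase. They were measured in C2C12 cells, an established mouse myoblast line that fuses into multinucleated myotubes when serum is lowered. Both groups were differentiated in 2% horse serum for 5 days. The medium was then changed for 24 h to 4% horse serum in the control group or to 4% STEM, the secretome of partially differentiated human pluripotent stem cells, in the treated group. Since STEM took the place of horse serum, the addition of one and the removal of the other cannot be told apart. Each group had 6 RNA libraries, horse serum 1 to 6 and STEM 7 to 12, with 13285472 to 24536264 counts on genes in each library. The methods describe RNA collected per culture well, but neither they nor the labels tie each library to a well or to a separate culture, so the p-values measure the spread between these libraries, which may be technical.

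At the neuromuscular junction, acetylcholine released by the motor nerve opens a five-part ion channel in the muscle membrane, built from a pair of alpha subunits with a beta, a delta and either a gamma or an epsilon subunit. The gamma subunit is typical of fetal and denervated muscle and is replaced by epsilon as the synapse matures. Receptors are clustered by a pathway in which nerve agrin binds LRP4, LRP4 activates the receptor kinase MuSK with the help of the adaptor DOK7, and rapsyn anchors the receptor from the inside. The methods name no cells other than C2C12 in these cultures.

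The libraries were first set against the markers of the cell types they could hold. Each of 12 myotube markers was measured, and the most abundant per kilobase of exon was the skeletal actin gene Acta1, at 2490 CPM per kb in horse serum and 2230 CPM per kb in STEM, where CPM is the count scaled to a common library total. Summed over the 12 markers, horse serum libraries 1 to 5 had 23300 to 25400 CPM, the STEM libraries 19400 to 25700 CPM and horse serum library 6 had 12600 CPM. Library 6 was thus at 51.8% of the mean of the other horse serum libraries, and it was the lowest horse serum library for 12 of 12 myotube markers, beside 33.1% of all genes tested (and the highest for 35.8%). Its summed level of 6 markers of myoblasts and dividing cells was 951 CPM, against 603 to 885 CPM in libraries 1 to 5 and 469 to 551 CPM with STEM. In bulk RNA, fewer myotubes and less muscle RNA per myotube cannot be told apart. Principal component 1 of the log2 CPM values put library 6 at 11.2, next to the STEM libraries (15.5 to 28.6) and away from the other horse serum libraries (-35.5 to -24.6). On component 2 it was at -53.3, far from both the STEM libraries (2.04 to 11.8) and the other horse serum libraries (0.216 to 3.15). The comparison of STEM with horse serum is therefore given with and without library 6.

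Across the 12 libraries, 4 of the 10 genes were differentially expressed, with Chrnb1, Dok7 and Lrp4 higher and Chrng lower in STEM-treated myotubes. This share was near that of all genes tested, of which 36.4% were called at an adjusted p of 0.05 or less (18.9% higher and 17.4% lower, quasi-likelihood test of edgeR, Benjamini-Hochberg adjusted over 14175 genes). When library 6 was left out, 7 of the 10 passed, against 50.8% of all genes (26.3% higher and 24.5% lower), with Chrna1, Chrnb1, Dok7 and Lrp4 higher and Chrnd, Chrng and Chrne lower. In that comparison the genes of the alpha and beta subunits, the agrin receptor and the MuSK adaptor were higher. The delta, gamma and epsilon subunit genes were lower. The number of the 10 genes called was 2 without horse serum library 1, STEM library 10 or STEM library 11. Among the 10, only Lrp4 and Chrng passed in those fits. Over the fits that leave 1 library out, between 4459 and 7245 of all genes were called. The median log2 fold change of the 10 genes was 0.0033, beside 0.012 for all genes tested. With all libraries the STEM and horse serum values overlapped for each of the 10 genes, against 17.2% of all genes without overlap. Without library 6 they did not overlap for 5 of the 10, against 33.3% of all genes.

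**Figure D1:**
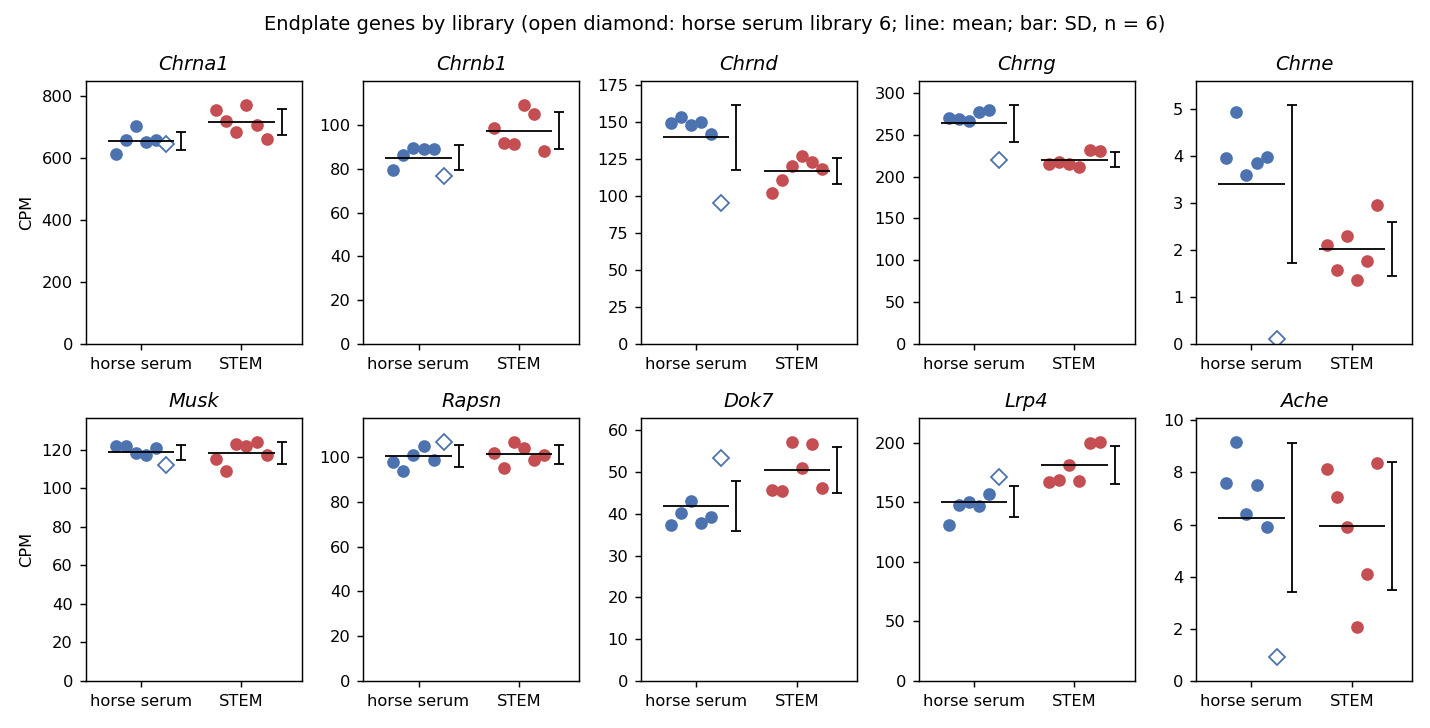
Normalized counts (CPM, vertical axes from 0) of the 10 genes in the 6 horse serum and 6 STEM libraries, with 1 point per library, the mean as a line and the SD as a bar (n = 6). The open diamond is horse serum library 6, which lies far below the other horse serum libraries for Chrne (0.102 CPM) and Ache (0.922 CPM) and above them for Dok7 (53.3 CPM).

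**Figure D2:**
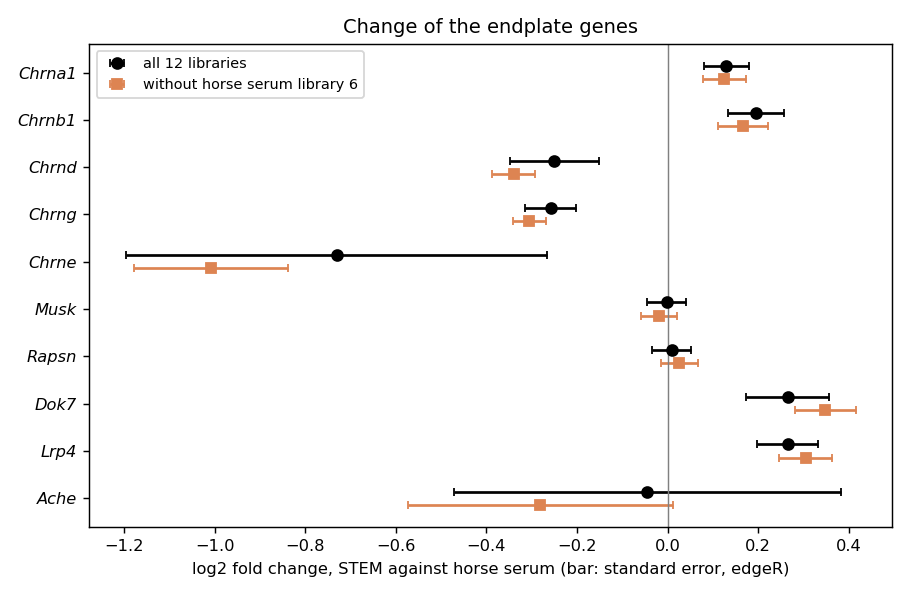
Log2 fold change of each gene between STEM and horse serum with its standard error (SE, derived from the edgeR test), for all 12 libraries (circles) and without horse serum library 6 (squares). Chrnd, Chrng and Chrne lie left of 0, Chrna1, Chrnb1, Dok7 and Lrp4 right of 0, and the error bar of Chrne shrinks from 0.465 to 0.17 without library 6.

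Chrna1 (ENSMUSG00000027107, chromosome 2, 73563215 to 73580338, minus strand) encodes the alpha subunit that carries the main acetylcholine binding face. Its lowest, median and highest values were 614, 656 and 704 CPM in horse serum and 663, 713 and 772 CPM in STEM, and 4 of 6 STEM libraries exceeded every horse serum library. Library 6, at 645 CPM, lay inside the horse serum range for this gene. The log2 fold change was 0.13 (standard error, SE, 0.050), which did not pass in edgeR (adjusted p = 0.0535), passed without library 6 (0.12, adjusted p = 0.0343) and passed in DESeq2 (adjusted p = 0.0369). In edgeR it also passed without horse serum library 3 (adjusted p = 0.0389), without STEM library 12 (0.0305) and with scaling by total counts (0.0353). It passed in limma-voom as well (adjusted p = 0.0472). With all libraries the difference was 1.09-fold. Chrnb1 (ENSMUSG00000041189, chromosome 11, 69784036 to 69795943, minus strand), the beta subunit gene, had 76.8, 87.6 and 89.6 CPM in horse serum and 87.8, 95.0 and 109 CPM in STEM. Library 6 was the lowest of the horse serum libraries here, and 5 of 6 STEM libraries exceeded all of them. Chrnb1 rose 1.14-fold (log2 fold change 0.19, SE 0.062, adjusted p = 0.0225 in edgeR), and the call was lost without horse serum library 1 (adjusted p = 0.0535), STEM library 7 (0.0524), STEM library 10 (0.0531) or STEM library 11 (0.0556).

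The delta and gamma subunit genes are neighbours on chromosome 1, separated by 4586 bases. Chrnd (ENSMUSG00000026251, 87190607 to 87200070, plus strand) had 142 to 153 CPM in horse serum libraries 1 to 5, with a median of 149 CPM, and 102, 119 and 127 CPM as the lowest, median and highest values with STEM. Library 6, at 95.6 CPM, was below every STEM library. Chrnd was at a log2 fold change of -0.25 with all libraries and did not pass in edgeR (SE 0.098, adjusted p = 0.0601). It passed in DESeq2 (adjusted p = 0.0418). In edgeR it also passed with upper quartile scaling (adjusted p = 0.0447) and with at least 10 counts in every library (0.0498). Without library 6 it fell by 0.34 on the log2 scale (SE 0.048, adjusted p = 8.64e-06 in edgeR), and each STEM library was below each of libraries 1 to 5. Chrng (ENSMUSG00000026253, 87204657 to 87212694, plus strand), the gene of the fetal gamma subunit, was also lower with STEM than in libraries 1 to 5. Its values were 266 to 279 CPM in libraries 1 to 5, 220 CPM in library 6, and 211, 216 and 232 CPM as the lowest, median and highest with STEM. Library 6 sat inside the STEM range, and 4 of 6 STEM libraries were below every horse serum library. Chrng fell with all libraries (log2 fold change -0.26, SE 0.056, adjusted p = 0.00236 in edgeR) and without library 6 (-0.31, SE 0.037, adjusted p = 1.29e-06), and it kept its call in each alternative and with each library left out (largest adjusted p = 0.0074).

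Chrne (ENSMUSG00000014609, chromosome 11, 70614883 to 70619216, minus strand) encodes the epsilon subunit of the adult receptor and was the least abundant subunit gene. Horse serum libraries 1 to 5 had 3.60 to 4.94 CPM on 51 to 66 counts, the STEM libraries had 1.36, 1.95 and 2.96 CPM as the lowest, median and highest values on 21 to 52 counts, and library 6 had 2 counts. Those 2 counts correspond to 0.102 CPM, or 2.52% of the mean of the other horse serum libraries (95% exact Poisson interval 0.305% to 9.09%, counting error only). With library 6, Chrne was at 3.41 ± 1.68 CPM in horse serum and 2.02 ± 0.577 CPM in STEM (SD, n = 6), a log2 fold change of -0.73 that did not pass (SE 0.47, adjusted p = 0.242 in edgeR). Limma-voom gave -0.043 (adjusted p = 0.97). Without library 6 the horse serum mean was 4.07 ± 0.51 CPM (n = 5), and Chrne fell to 0.497-fold with STEM (log2 fold change -1.01, SE 0.17, adjusted p = 6.28e-05 in edgeR), the largest change among the 10 genes. All 6 STEM libraries were below libraries 1 to 5.

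The promoter regions of these subunit genes are shown because elements in them are known to drive expression in muscle. The E-box CAGCTG is a binding site of myogenic factors such as myogenin, and CCGGAA is the core of the N-box, an element bound by GABP in synaptic nuclei. RefSeq (GRCm38.p6) gave a promoter window, 250 bases before to 50 bases after the annotated start, for 7 of the 10 genes, namely Chrna1, Chrnb1, Chrng, Chrne, Musk, Dok7 and Ache. The 250 bases before the start are printed on the gene's strand for the abundant alpha subunit and for the gamma and epsilon subunits, with CAGCTG and CCGGAA, searched on both strands, in capitals. The alpha promoter is chr2:73580339-73580588, the gamma promoter chr1:87205561-87205810 and the epsilon promoter chr11:70619195-70619444. These windows use the RefSeq start, which for Chrng lies downstream of the GENCODE gene start given for it, so that the whole printed Chrng stretch is inside the gene as GENCODE places it. The Chrne stretch overlaps the first bases of the GENCODE gene, and for Chrna1 both starts are the same.
Chrna1: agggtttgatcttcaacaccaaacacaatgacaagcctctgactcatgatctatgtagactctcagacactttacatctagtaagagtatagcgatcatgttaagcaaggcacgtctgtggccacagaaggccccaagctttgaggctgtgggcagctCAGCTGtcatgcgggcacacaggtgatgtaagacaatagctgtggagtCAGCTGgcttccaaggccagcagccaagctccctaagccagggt
Chrng: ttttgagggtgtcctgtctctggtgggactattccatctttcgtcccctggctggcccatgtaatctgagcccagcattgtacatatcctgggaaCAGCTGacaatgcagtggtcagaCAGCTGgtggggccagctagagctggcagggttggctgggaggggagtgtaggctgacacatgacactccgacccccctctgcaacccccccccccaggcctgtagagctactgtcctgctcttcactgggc
Chrne: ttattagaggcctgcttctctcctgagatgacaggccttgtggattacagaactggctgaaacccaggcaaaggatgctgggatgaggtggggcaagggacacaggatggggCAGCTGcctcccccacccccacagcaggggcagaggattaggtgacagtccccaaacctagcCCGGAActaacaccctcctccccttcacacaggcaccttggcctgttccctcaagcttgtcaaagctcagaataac
CAGCTG occurred at 2 positions in the Chrna1 window, beginning 92 and 44 bases before the start, and at 2 positions in the Chrng window, 155 and 132 bases before the start. The Chrne window held 1 CAGCTG, 138 bases before the start, and was the only window of the 7 genes with CCGGAA, 76 bases before the start. The Musk window held 1 CAGCTG, 68 bases before the start, and the windows of Chrnb1, Dok7 and Ache held none. Among all 32851 promoter windows, 16.3% held CAGCTG, 14.9% held CCGGAA and 72.3% held any CANNTG, the general E-box, which includes CAGCTG.

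The RNA levels of the receptor subunit genes were compared with each other per kilobase of exon. In horse serum libraries 1 to 5, Chrna1 was at 150 ± 7.28 CPM per kb, Chrng at 65.4 ± 1.3, Chrnd at 45 ± 1.22, Chrnb1 at 34.2 ± 1.69 and Chrne at 2.41 ± 0.302 (SD, n = 5). With STEM the levels were 164 ± 9.45 CPM per kb for Chrna1, 52.9 ± 2.16 for Chrng, 38.4 ± 3.38 for Chrnb1, 35.6 ± 2.72 for Chrnd and 1.19 ± 0.342 for Chrne (SD, n = 6). The order of Chrnd and Chrnb1 was therefore exchanged, although their ranges overlapped with STEM (31.2 to 38.7 and 34.7 to 43.1 CPM per kb), while in libraries 1 to 5 they did not. Of the summed subunit RNA per length, Chrna1 made up 50.5 ± 1.12% in libraries 1 to 5 and 56.1 ± 1.71% with STEM, and Chrng 22.0 ± 0.814% and 18.2 ± 1.18%. Library 6, at 56.7% for Chrna1, was within the STEM range for this share (54.2% to 58.4%), while its Chrng share of 20.4% was above that range (16.4% to 19.8%) and its Chrnb1 share of 11.7% below it (12.4% to 14%).

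Gamma RNA exceeded epsilon RNA in every library. The ratio of Chrng to Chrne per length was between 22.1 and 30.0 in horse serum libraries 1 to 5 and between 31.6 and 63.1 in the STEM libraries, so the 2 sets of libraries did not overlap. Both genes were lower with STEM than in libraries 1 to 5, and Chrne by more. In library 6 the ratio was 870, which rests on the 2 counts of Chrne (241 to 7190 from their exact Poisson interval). These ratios are a description, with no test. With the longest transcript in place of all exons, the mean levels of Chrng and Chrnb1 in libraries 1 to 5 became 97.9 and 40.2 CPM per kb in place of 65.4 and 34.2. Over all 6 horse serum libraries they became 94.7 and 39.4 CPM per kb in place of 63.3 and 33.6. The shares and the ratio of Chrng to Chrne were computed with all exons only.

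**Figure D3:**
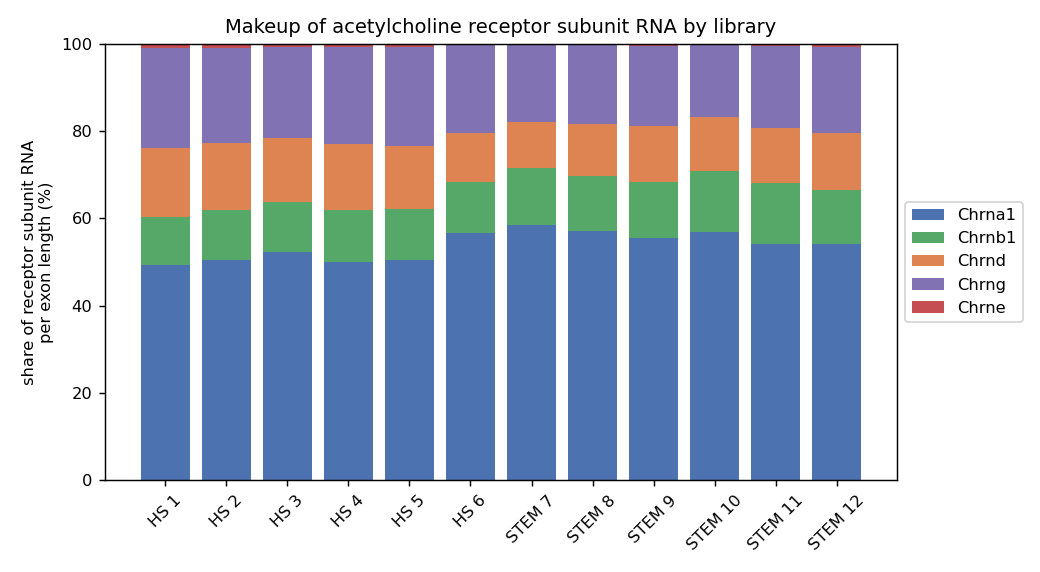
Share of each receptor subunit gene in the summed subunit RNA per exon length (%, bars sum to 100) for horse serum (HS) libraries 1 to 6 and STEM libraries 7 to 12. The Chrna1 share is 49.3% to 52.3% in HS 1 to 5 and 54.2% to 58.4% with STEM, with HS 6 at 56.7%, and Chrne is the thin band at the top, at most 0.98%.

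Of the clustering genes, the agrin receptor and the MuSK adaptor were higher in STEM-treated myotubes, and the kinase and the anchor protein were near the same level in both groups. Lrp4 (ENSMUSG00000027253, chromosome 2, 91457511 to 91513779, plus strand), the agrin receptor gene, had 131 to 157 CPM in horse serum libraries 1 to 5, 171 CPM in library 6 and 167, 175 and 201 CPM as the lowest, median and highest values with STEM. Only library 6 reached into the STEM range. Lrp4 rose 1.20-fold (log2 fold change 0.27, SE 0.068, adjusted p = 0.00648 in edgeR) and kept its call in each alternative and with each library left out (largest adjusted p = 0.0181). Dok7 (ENSMUSG00000044716, chromosome 5, 35056766 to 35087839, plus strand), the gene of the cytoplasmic activator of MuSK, had 37.4 to 43.0 CPM in libraries 1 to 5, 53.3 CPM in library 6 and 45.5, 48.6 and 57.3 CPM with STEM. Again library 6 lay among the STEM libraries, and the other horse serum libraries lay below all of them. The rise of Dok7 was 1.20-fold (log2 fold change 0.26, SE 0.092, adjusted p = 0.0342 in edgeR) and 1.27-fold without library 6 (0.35, SE 0.068, adjusted p = 0.000276). Its call was lost without horse serum library 1, 2, 3, 4 or 5 (adjusted p = 0.0774, 0.0676, 0.052, 0.0762 and 0.0727), without STEM library 9, 10 or 11 (0.0817, 0.058 and 0.0804), and with scaling by total counts (0.06).

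Musk (ENSMUSG00000057280, chromosome 4, 58285960 to 58374303, plus strand) encodes the muscle-specific receptor kinase. It had 112, 120 and 122 CPM in horse serum and 109, 120 and 124 CPM in STEM, with 3 STEM libraries above and 1 below all horse serum libraries. Its log2 fold change was -0.0020 (SE 0.043, adjusted p = 0.978 in edgeR). Rapsn (ENSMUSG00000002104, chromosome 2, 91035620 to 91045729, plus strand), the gene of rapsyn, had 94.0, 100 and 107 CPM in horse serum and 95.0, 101 and 107 CPM in STEM, with a log2 fold change of 0.0085 (SE 0.044, adjusted p = 0.896). These standard errors are the smallest of the 10 genes, and library 6 was near the mean of the other horse serum libraries, at 93.1% of it for Musk and 107% for Rapsn. Per kilobase of exon, Rapsn was at 55.1 ± 2.27 CPM per kb in libraries 1 to 5 and 56.1 ± 2.27 with STEM, Musk at 31.8 ± 0.543 and 31.3 ± 1.54, Lrp4 at 14 ± 0.906 and 17.2 ± 1.54, and Dok7 at 9.25 ± 0.527 and 11.8 ± 1.28 (SD, n = 5 and 6). In libraries 1 to 5, Rapsn lay between Chrng and Chrnd without overlap, and the ranges of Chrnb1 and Musk overlapped. With STEM, Rapsn was above Chrng with overlapping ranges, an order that turned with the longest transcript as the length (63.0 against 79.2 CPM per kb).

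Ache (ENSMUSG00000023328, chromosome 5, 137287519 to 137294466, plus strand) encodes the enzyme that breaks down acetylcholine in the synaptic cleft. It was at 5.92 to 9.18 CPM in horse serum libraries 1 to 5, 0.922 CPM in library 6 (18 counts) and 2.06, 6.49 and 8.35 CPM as the lowest, median and highest values with STEM. The STEM libraries were spread widely, with library 10 lowest, and the groups overlapped. The log2 fold change was -0.045 (SE 0.43, adjusted p = 0.946 in edgeR) and -0.28 without library 6 (SE 0.29, adjusted p = 0.453). Neither passed, and with such errors a moderate difference was not detectable. Per kilobase of exon Ache was the lowest of the 10 genes in libraries 1 to 5, at 1.59 ± 0.273 CPM per kb, and overlapped Chrne with STEM, at 1.28 ± 0.532.

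Library 6 departed from the other horse serum libraries in a graded way. Relative to their mean it was at 2.52% for Chrne, 12.6% for Ache, 64.6% for Chrnd, 80.7% for Chrng, 88.6% for Chrnb1, 98.0% for Chrna1, 117% for Lrp4 and 135% for Dok7. For all 5 genes whose groups did not overlap without it (Chrnd, Chrng, Chrne, Dok7 and Lrp4), library 6 lay outside libraries 1 to 5 on the side of the STEM libraries. Among all 4749 such genes the same held for 68.5%. The summed myotube markers of this library were also lower, at 51.8% of the mean of libraries 1 to 5. Chrna1 was near its mean in those libraries, and Lrp4 and Dok7 were above theirs. The part of the myotube markers in these values was not tested. Without library 6, 8 of 12 myotube markers were called lower with STEM and 0 called higher, beside 24.5% of all genes called lower. The median log2 fold change of the 12 was -0.25. Among the 8 were Acta1 (log2 fold change -0.25, adjusted p = 0.000271 in edgeR) and the perinatal myosin gene Myh8 (-1.48, adjusted p = 1.83e-06). The other 4, Ckm, Myh3, Ttn and Neb, were not called and had log2 fold changes of 0.11, 0.17, 0.16 and 0.073. With all libraries 1 of 12 was called, Myh8 (-1.25, adjusted p = 0.0357 in edgeR), beside 36.4% of all genes called and 17.4% called lower. The call of Myh8 was lost when any single library other than library 6 was left out (adjusted p = 0.0505 to 0.0745). Of the 6 markers of myoblasts and dividing cells, 4 were called lower with STEM and 0 called higher, both with and without library 6.

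**Figure D4:**
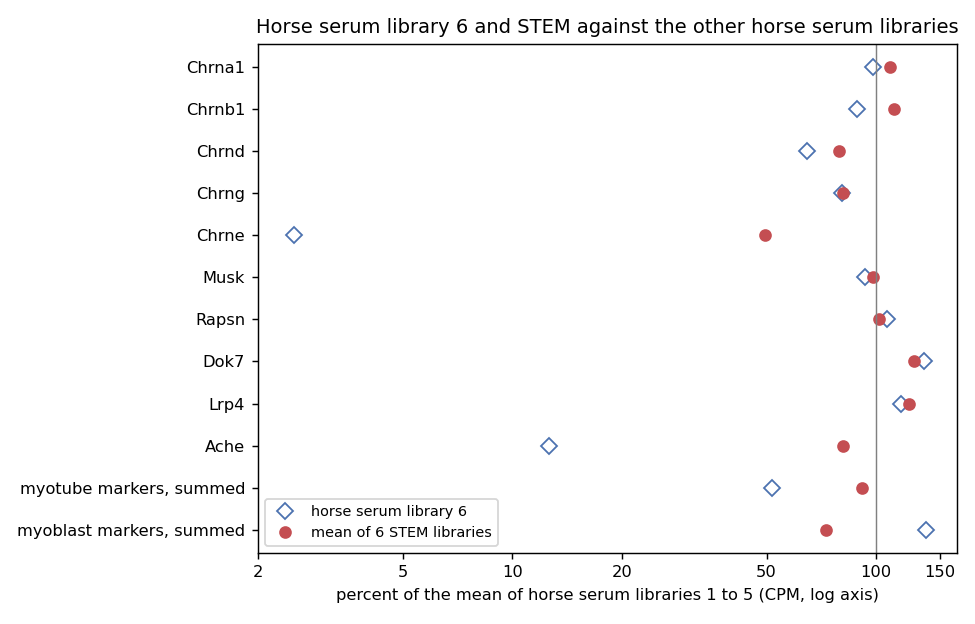
Level of each gene, and summed level of the myotube and myoblast markers, in horse serum library 6 (open diamonds) and as the mean of the 6 STEM libraries (circles), in percent of the mean CPM of horse serum libraries 1 to 5 on a log axis. Library 6 is at 2.52% for Chrne, 12.6% for Ache and 51.8% for the myotube markers, and near 100% for Chrna1, Musk and Rapsn.

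The other genes of the junction were read from the same fit in 6 lists. Of 21 genes of agrin signalling and the kinases and small GTPases that act below MuSK, 11 were differentially expressed, 7 higher and 4 lower (52.4%, beside 36.4% of all genes, median log2 fold change 0.12). Ywhag, the gene of the adaptor 14-3-3 gamma, rose from 104 ± 10.8 CPM to 148 ± 10.1 CPM (SD, n = 6, adjusted p = 4.5e-05 in edgeR), without overlap between the groups. Ptpn11, the gene of the phosphatase SHP2, rose from 199 ± 6.22 CPM to 234 ± 6.2 CPM and Sh3pxd2a, a podosome scaffold gene, from 204 ± 8.88 CPM to 260 ± 35.1 CPM. The kinase gene Pak1 fell from 75.6 ± 3.35 CPM to 62.6 ± 2.63 CPM (adjusted p = 0.000243). Agrn itself, which muscle also makes in a form of low clustering activity, was at 37.7 ± 4.35 CPM in horse serum and 39.3 ± 4.62 CPM in STEM (adjusted p = 0.657). Without library 6, 14 of the 21 were called (66.7%, beside 50.8% of all genes), 10 higher and 4 lower.

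Of 12 genes of the membrane cytoskeleton that holds the receptor field, 7 were differentially expressed, 2 higher and 5 lower (58.3%, beside 36.4% of all genes, median log2 fold change -0.21). Utrn, the gene of utrophin, which is concentrated under the receptors, fell from 312 ± 18.3 CPM to 256 ± 23.9 CPM without overlap (adjusted p = 0.00229 in edgeR). The dystrobrevin gene Dtna fell from 146 ± 29.8 CPM to 95.1 ± 4.18 CPM and the syntrophin gene Sntb2 from 49.1 ± 4.53 CPM to 38.8 ± 2.35 CPM, while the dystroglycan gene Dag1 rose from 337 ± 23.9 CPM to 425 ± 54.6 CPM. In library 6, Dtna (86.3 CPM) was below every STEM library and Sntb2 (58.2 CPM) above every other library. Without library 6, 9 of the 12 were called (75.0%, beside 50.8% of all genes), 2 higher and 7 lower.

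Of 15 genes of the synaptic cleft and its basal lamina 10 could be tested, and 3 were differentially expressed, a share of 30% beside 36.4% of all genes. The laminin gene Lamb2 rose (log2 fold change 0.24, adjusted p = 0.0147 in edgeR), and Lama2 (-0.33, adjusted p = 0.00175) and the nidogen gene Nid2 (-0.24, adjusted p = 0.0152) fell. Colq, the collagen-like tail that moors acetylcholinesterase, was at 3.98 ± 1.67 CPM in horse serum and 3.31 ± 1.01 CPM in STEM (adjusted p = 0.62), and like Ache it was low in library 6, at 0.871 CPM against 3.67 to 5.72 CPM in libraries 1 to 5. Without library 6, 4 of the 10 were called (40%, beside 50.8% of all genes), 2 higher and 2 lower.

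Of 15 genes of synapse-specific transcription and neuregulin signalling 14 could be tested, and 6 were differentially expressed, 1 higher and 5 lower (42.9%, beside 36.4% of all genes, median log2 fold change -0.17). The ETS factor gene Etv4 fell from 6.8 ± 1.7 CPM to 3.61 ± 0.61 CPM (adjusted p = 0.00055 in edgeR) and Gabpa, the gene of the ETS subunit of GABP, from 108 ± 3.26 CPM to 93.3 ± 6.58 CPM (adjusted p = 0.00313), both without overlap. Camk2g, a calcium-dependent kinase gene, and Prkar1a, the gene of a regulatory subunit of protein kinase A, fell by 0.30 and by 0.20 on the log2 scale (adjusted p = 0.00273 and 0.00401). The neuregulin receptor gene Erbb3 was at 63.9 ± 4.7 CPM in horse serum and 58.9 ± 4.06 CPM in STEM (adjusted p = 0.137). Without library 6, 7 of the 14 were called (50%, beside 50.8% of all genes), 1 higher and 6 lower.

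Of 14 genes regulated by muscle activity or denervation 13 could be tested, and 3 were differentially expressed (23.1%, beside 36.4% of all genes). Myog, the gene of the myogenic factor myogenin, fell from 907 ± 38.3 CPM to 745 ± 83.8 CPM (log2 fold change -0.28, SE 0.067, adjusted p = 0.00403 in edgeR), and all but 1 of the STEM libraries lay below the lowest horse serum value. The deacetylase gene Hdac5 fell from 94.8 ± 6.02 CPM to 63.1 ± 5.44 CPM without overlap (adjusted p = 6.13e-06), and Mef2d, a muscle transcription factor gene, rose from 43.1 ± 3.54 CPM to 53.3 ± 9.93 CPM (adjusted p = 0.0347). The call of Mef2d was lost without horse serum library 1, 2, 3 or 4 (adjusted p = 0.0779, 0.0556, 0.0571 and 0.0703) or STEM library 8, 11 or 12 (0.0502, 0.0809 and 0.0717). Without library 6, 5 of the 13 were called (38.5%, beside 50.8% of all genes), 2 higher and 3 lower. Of 5 genes of the sugar donors and glycosylation that receptor assembly needs, 3 were differentially expressed and all 3 rose, also without library 6, beside 18.9% of all genes higher with all libraries and 26.3% without library 6. Gmppb, which makes GDP-mannose, rose from 15.7 ± 3.12 CPM to 30.5 ± 2.14 CPM (log2 fold change 0.95, SE 0.11, adjusted p = 1.01e-05), Alg2 from 17.4 ± 0.829 CPM to 20.9 ± 2.44 CPM, and Gfpt1, the first enzyme of hexosamine synthesis, from 60.1 ± 3.69 CPM to 68.8 ± 2.79 CPM.

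**Figure D5:**
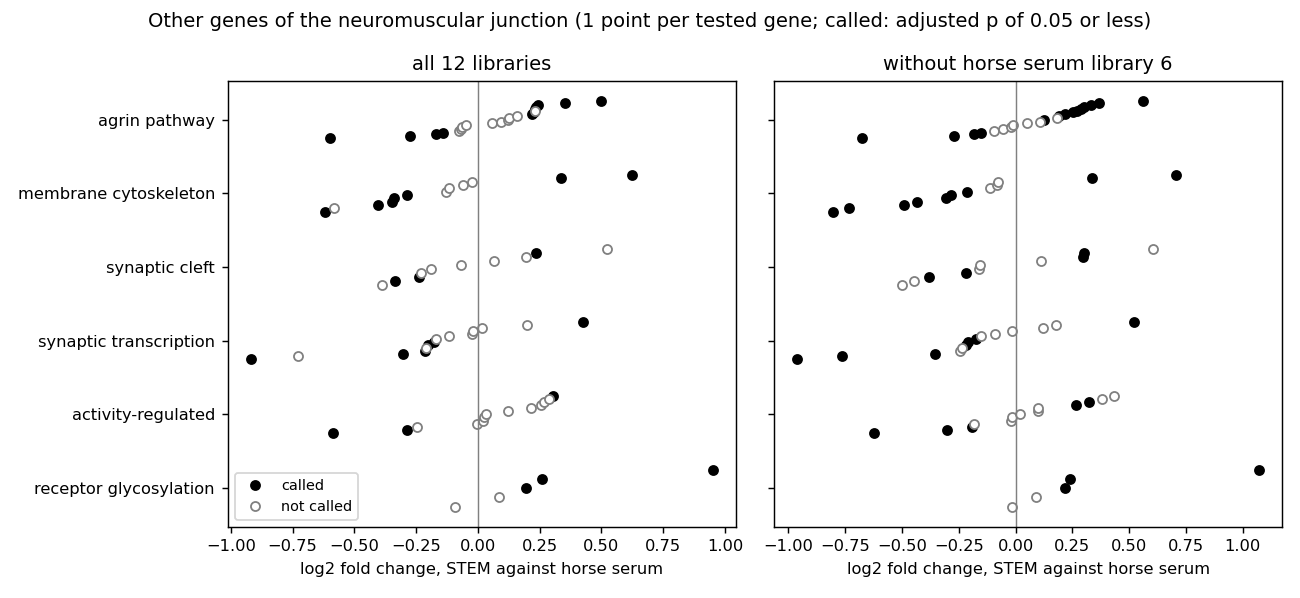
Log2 fold change between STEM and horse serum of every tested gene of 6 lists of junction genes, with all 12 libraries (left) and without horse serum library 6 (right), filled where the adjusted p was 0.05 or less. In the membrane cytoskeleton list 2 called genes lie right of 0 and 5 left of it with all libraries, and in the glycosylation list the 3 called genes all lie right of 0.

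The neuronal receptor subunits and the markers of nerve and glia were near absent. Of 11 other nicotinic subunit genes, 8 (Chrna2, Chrna3, Chrna4, Chrna5, Chrna6, Chrna7, Chrnb3 and Chrnb4) had 0 counts in each library, and only Chrnb2 could be tested, at 1.27 ± 0.387 CPM in horse serum and 1.05 ± 0.267 CPM in STEM (adjusted p = 0.368 in edgeR). Of 7 motor neuron markers, the defining genes Chat, Slc18a3 and Mnx1 had 0 counts in each library. The most abundant of this list was Slc5a7, the choline transporter gene, which fell from 1.92 ± 0.658 CPM to 0.923 ± 0.324 CPM (13 to 57 counts per library, adjusted p = 0.00422). The 5 Schwann cell markers summed to between 1.99 and 3.60 CPM in horse serum libraries 1 to 5, 2.41 CPM in library 6 and 1.83 to 3.29 CPM with STEM.

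The genes whose pattern over the libraries was closest to that of Chrna1 and Chrng were found by the root mean square difference of log2 CPM around each gene's mean. Over 12 libraries the closest to Chrna1 were Becn1 (0.038), Naa20 (0.043) and Trnt1 (0.044), against a SD of 0.098 of Chrna1 itself, and over the 11 without library 6 they were Naa20 (0.033), Smarca5 (0.035) and Gpatch2l (0.039). For Chrng they were Tbc1d23 (0.049), Stk24 (0.049) and Ppcdc (0.054) over 12 libraries, against a SD of 0.16, and Rictor (0.029) and Cbr4 (0.044) over 11. None of the other 9 junction genes was among the closest 3.

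Exons of Ache share 98 bases with the gene Gm42456 and exons of Rapsn 4 bases with Gm13778, both on the opposite strand. The sources used here do not state whether the counting used the strand, so reads in these bases cannot be told apart. Chrne overlaps 4930544D05Rik by 0 exon bases.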

How the data were processed

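Raw counts per Ensembl gene were deposited by the authors for 12 total RNA libraries (stranded, ribosomal RNA depleted) on GRCm38, without normalization. The submitters' processing notes name STAR 2.7.3a, featureCounts 1.6.3 and DESeq2 1.26.0, and the annotation release and strand setting are not given in the sources used here. Symbols, positions and exon lengths came from GENCODE M21. Counts summed to between 13285472 and 24536264 per library. Intervals cover counting error alone.

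Groups were compared with edgeR 4.0.16 in R 4.3.3 (robust quasi-likelihood, TMM, filterByExpr, 14175 genes, Benjamini-Hochberg, 0.05), without covariates. This test gives no standard error. The SE printed for edgeR is the absolute log2 fold change divided by the square root of the F statistic of the test. DESeq2 1.42.0, limma-voom (limma 3.58.1), other scalings and filters, and leaving out each library were alternatives. On simulated data with known changes, false calls were near the threshold with edgeR and limma-voom and above it with DESeq2. These rates belong to the simulated counts only. Whether they hold for the libraries compared here was not tested, so they give no error rate for the calls reported. Within groups, chi-square per degree of freedom between libraries was 3.29 to 68.5, so no pair agreed within sampling noise.

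The 10 genes and the lists were chosen with earlier results of these data known. Named were all 10 genes, up to 4 called genes per list by lowest p, Agrn, Colq, Utrn, Erbb3, Myog and Gfpt1, the most abundant marker and those at 0, the 3 nearest genes of Chrna1 and Chrng, and overlapping genes, of which some are not reported here. Myh8 and the genes of the closing observations were named after their values were seen. Log2 CPM used a prior count of 2.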

Additional observations from a re-analysis of the deposited data

Results flagged for a closer look

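In 4 of 20 sets of 6 library values (10 genes in 2 groups) the lowest or highest library stood apart from the rest by more than the 95% critical gap of Dixon for 6 values, and each time it was horse serum library 6. Chance gives such a gap in about 1 in 20 groups, but these sets share their libraries and are not independent, so the number of gaps is a description of library 6. Chrnd was at 95.6 CPM in library 6, with the nearest other horse serum library at 142 CPM. Chrng was at 220 CPM against 266 CPM, and Chrne was at 0.102 CPM against 3.60 CPM. Dok7 was at 53.3 CPM in library 6, above the nearest other at 43.0 CPM. No STEM library stood apart in this way for any of the 10 genes.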

How the results depend on the processing

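No paired analysis was possible because the library numbers, 1 to 6 and 7 to 12, are not shared between the groups. Between 4459 and 7245 genes were called with each library left out in turn, and 2 to 7 of the 10 junction genes, 2 without horse serum library 1, STEM library 10 or STEM library 11 and 7 without horse serum library 6. The other alternatives called 4 to 6 of the 10, beside 4648 to 5338 of all genes. The activity-regulated list had 2 to 5 calls and the myotube markers 0 to 8 calls with a library left out, the highest each time without horse serum library 6. With edgeR without a filter and with limma-voom, 0 myotube markers were called (1 at an unadjusted p under 0.05 in each, as in the fits without 1 other library). Chrng and Lrp4 kept their direction and call in every alternative. For genes that were not called, the direction turned for Musk with total counts (0.019), for Rapsn with upper quartile scaling (-0.012) and with at least 10 counts in every library (-0.0019), and for Ache with limma-voom (0.20). Over the fits that leave 1 library out, log2 fold changes ranged from -0.019 to 0.021 for Musk, from -0.010 to 0.026 for Rapsn and from -0.28 to 0.13 for Ache. Mef2c, at 0.023 with all libraries, ranged from -0.19 (without horse serum library 6, where it was called lower, adjusted p = 0.00344) to 0.077, with -0.023 without STEM library 7, and Pax7, at -0.036, from -0.12 to 0.018 (without STEM library 10). The cause was not tested. The 35 other named genes were recomputed as alternatives chosen after seeing the data, and among those called only Mef2d and Myh8 lost their call under any of them (also without a filter, adjusted p = 0.0622 and 0.0798, and in limma-voom, 0.0516 and 0.105). Chrne had no value with at least 10 counts in every library, since library 6 had 2. The median log2 fold change of all genes lay between -0.0082 and 0.031 under the scalings. Among the 10 genes, the standard errors were largest for Chrne (0.465, and 0.17 without library 6) and Ache (0.427, and 0.292 without library 6). Chrne and Ache had at most 66 and 199 counts per library, and the cause of their low precision was not tested.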

Other observations

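Several further junction and muscle genes, named after their values were seen, were also low in horse serum library 6. This library was the lowest of the horse serum libraries for 33.1% of all genes tested and the highest for 35.8%. It was the highest for 14 of the 21 agrin signalling genes (66.7%) and 6 of the 10 synaptic cleft genes tested (60%). Camk2b, the gene of a muscle calcium-dependent kinase subunit, was at 6.2 CPM in library 6, 48.5 to 63.9 CPM in horse serum libraries 1 to 5 and 21.9 to 35.9 CPM with STEM. Dmd, the dystrophin gene, was at 4.61 CPM, 21.2 to 28.9 CPM and 12.5 to 16.2 CPM in the same order. Without library 6 both fell with STEM (Camk2b log2 fold change -0.96, adjusted p = 0.000143, and Dmd -0.80, adjusted p = 1.78e-07, edgeR), and with it neither was called (adjusted p = 0.192 and 0.184). Mef2c, a muscle transcription factor gene, was at 71.5 CPM in library 6, 409 to 434 CPM in libraries 1 to 5 and 343 to 417 CPM with STEM, and it too fell without library 6 (log2 fold change -0.19, adjusted p = 0.00344 in edgeR). Pax7, a marker of satellite cells and quiescent myoblasts, was at 33.3 ± 3.9 CPM in horse serum and 32.4 ± 5.78 CPM in STEM (SD, n = 6), while Myf5, a marker of committed myoblasts, fell from 18.1 ± 2.14 CPM to 13.5 ± 1.1 CPM without overlap (adjusted p = 0.00132 in edgeR).

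A pair of further junction genes, also named after their values were seen, rose. Nrg1, a ligand of the neuregulin receptors, had 17.5 to 21 CPM in horse serum libraries 1 to 5, 28.3 CPM in library 6 and 23.3 to 35.6 CPM with STEM (log2 fold change 0.43, SE 0.13, adjusted p = 0.0191 in edgeR). Plec, the gene of the cytoskeletal linker plectin, rose from 628 ± 109 CPM to 967 ± 222 CPM (SD, n = 6, adjusted p = 0.0065), and all but 1 of the STEM libraries lay above the highest horse serum value.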
